A study of Mus musculus with 24 samples.

Results

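The translation initiation and elongation factors of mouse liver were taken as all genes whose symbol starts with Eif1 to Eif6, Eef1 or Eef2, leaving out the eIF4E-binding proteins (Eif4ebp) and the eIF2 kinases (Eif2ak), which regulate the factors. The rule found 80 of the 22429 genes in the count table. Of these, 16 are numbered Eif1ad-like genes on chromosome 12, here called the chromosome 12 copies by their names, since their sequences were not compared, and 64 are the other factors, their subunits and the enzymes that modify them. After the filter on low counts, 72 of the 80 were tested, beside 12690 genes in all. The other 8 were Eef1a2, Eif5a2, Eef1akmt3, Eif4e1b and 4 of the chromosome 12 copies.

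Polyadenylated RNA was sequenced from livers of male F1 hybrid C57BL6J/FVBN mice in 6 groups of 4 libraries. Wild-type mice were taken at 16 weeks on free feeding (about 3.0 g a day), at 104 weeks on free feeding, and at 16 weeks under 30% dietary restriction (2.1 g a day). Mice labelled Ercc1 d/-, compound heterozygotes of a truncated and a null allele for a DNA repair nuclease subunit that become prematurely old, were taken at 7 weeks and at 16 weeks on free feeding (2.3 g a day) and at 16 weeks under 30% restriction (1.6 g a day). Restriction started at 7 weeks of age and reached its full extent at 9 weeks, and no group was fed on the day of sacrifice before collection. The Ercc1 defect is in every cell of the animal, and no wild type of 7 weeks is among the groups, so growth and premature ageing of the mutant cannot be told apart between 7 and 16 weeks. Replicates are numbered, but no label says they come from different animals, and the p-values therefore cover only the spread among these libraries.

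Initiation factors assemble the ribosome on an mRNA. The cap-binding complex eIF4F (the cap-binding protein eIF4E, the scaffold eIF4G and the RNA helicase eIF4A) loads a small subunit that carries eIF3, eIF1, eIF1A, eIF5 and the initiator tRNA on eIF2, and eIF2B recharges eIF2 with GTP. Elongation is then driven by eEF1A, which brings aminoacyl-tRNA and is recharged by the eEF1B complex, and by eEF2, which moves the ribosome along and is inhibited when eEF2 kinase (Eef2k) phosphorylates it. Liver makes most plasma proteins and adjusts translation to feeding, in part through mTORC1 and its control of mRNAs that begin with a pyrimidine tract, the TOP mRNAs, several of which encode elongation factors.

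The sequences around the annotated transcription starts are shown because that start decides whether an mRNA can begin with a TOP tract. RefSeq windows on GRCm38.p6 matched 49 of the 80 genes. A TOP-like start was a C followed by at least 4 pyrimidines (C or T) on the transcribed strand, with that C within 5 bases of the annotated start. Each run of 30 bases below holds 15 bases before the start base, that base and 14 after it, with a TOP-like run in capitals.
Eef1a1, chr9:78481710-78481739, minus strand: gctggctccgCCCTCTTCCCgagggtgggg
Eif3f, chr7:108934400-108934429, plus strand: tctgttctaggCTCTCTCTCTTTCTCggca
Eif4g1, chr16:20672712-20672741, plus strand: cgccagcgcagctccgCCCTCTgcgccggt
Eef2, chr10:81176616-81176645, plus strand: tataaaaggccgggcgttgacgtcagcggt
Eef1b2, chr1:63176816-63176845, plus strand: tggacctgcagttccgccggaagtagccga
Eif3a, chr19:60790679-60790708, minus strand: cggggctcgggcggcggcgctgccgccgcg
Eif4a2, chr16:23107453-23107482, plus strand: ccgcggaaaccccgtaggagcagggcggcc
Eif4g3, chr4:137993440-137993469, plus strand: aaagctccgagcggccgtcctgccggactg
The Eef1a1, Eif3f and Eif4g1 windows held such a run and the other 5 did not. Eif4g3 has 2 annotated starts in the table and only one is shown. A TOP-like start was found in 12 of the 49 factors with a window (24.5%) and in 5718 of 27025 genes (21.2%). Among the factors that rose under restriction in the wild type (described further on), 1 of 9 with a window held it (11.1%). Of the known TOP mRNAs among the factors, only 2 of 5 with a window held it (40%), and Eef2 and Eef1b2 are known TOP mRNAs without it. The search thus misses known TOP mRNAs, and its shares do not tell which of the risers are TOP mRNAs. A match is a run of letters at an annotated start and no measurement of the transcript's end, and the lack of one says only that these letters are not in this window.

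Libraries held 13.3 to 20.6 M (mega) counts. Transcripts of mitochondrial DNA took 8.60% to 16.9% of them, with 12.5% to 16.9% in the restricted groups. Of the marker lists, the hepatocyte list was highest in all groups, at a summed 80120 to 160802 CPM (counts relative to the library total scaled by its TMM factor), whereas T and NK cell markers summed to under 2 CPM in every library. Ercc1 itself was at 2.59 ± 0.413 CPM (SD, n = 4) in the freely fed 16-week wild type, 3.52 ± 0.977 CPM in the restricted wild type and 3.11 ± 0.756 CPM at 104 weeks. It was at 1.61 ± 0.488, 1.51 ± 0.414 and 1.55 ± 0.331 CPM in the mutant at 7 weeks, at 16 weeks and under restriction. In bulk tissue, fewer cells of a type and less RNA per cell cannot be told apart, and CPM are relative to the other genes of a library.

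Per kilobase of exon, 2 elongation factors stood above every other factor. Eef1a1, which delivers aminoacyl-tRNA, had a mean level of 1255 CPM per kb over the 24 libraries, and Eef2, the translocation factor, 427 CPM per kb. The next levels were those of Eif4g1 (82.5 CPM per kb), the main eIF4G scaffold, Eif4a1 (77.1 CPM per kb), the eIF4A helicase, and Eef1g and Eef1b2 of the eEF1B exchange complex (73.2 and 72.7 CPM per kb). Eif5a, which helps ribosomes past difficult peptide bonds, was at 70.2 CPM per kb and Eif1, which guards start codon choice, at 69.9 CPM per kb. These last 6 lie close together, and their order was not tested. Within eIF3 the level ran from 8.57 CPM per kb for Eif3j1 to 58.9 CPM per kb for Eif3h, although the subunits form one complex. The exchange factor eIF2B ran from 1.56 CPM per kb for Eif2b3 to 17.7 CPM per kb for Eif2b4. The second isoforms were nearly silent, with Eef1a2 at 0.0484 and Eif5a2 at 0.00726 CPM per kb.

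**Figure D1:**
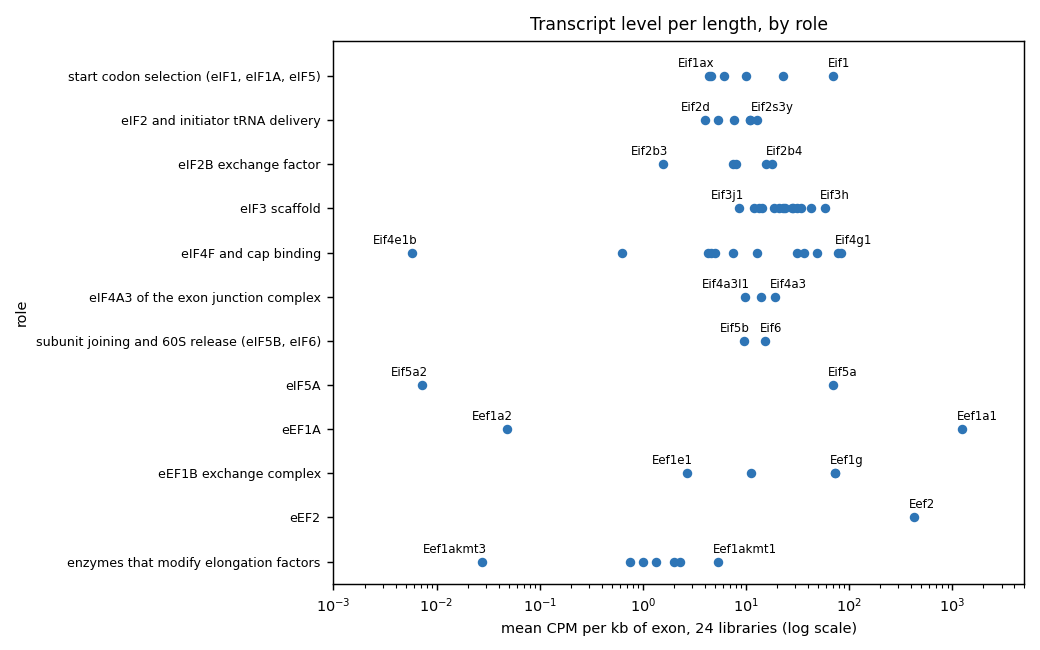
Mean level of each factor per kilobase of exon union (CPM per kb, log axis, mean of 24 libraries), one point per gene, grouped by role, with the highest and lowest gene of each role named and the chromosome 12 copies left out. Eef1a1 at 1255 and Eef2 at 427 CPM per kb stand apart from the initiation factors, and Eef1a2 and Eif5a2 lie below 0.05 CPM per kb.

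Some levels rest on reads that several genes may share. Eif3j1 and Eif3j2 had 19191 and 19159 counts in all and differed by at most 15 counts in any library, so their separate values are uncertain. The same may hold for Eif4a3 and its copies Eif4a3l1 and Eif4a3l2, whose unscaled counts rose and fell together over the libraries (Pearson r 0.951 to 0.963, as a description). Library depth adds to such an r, which does not show shared reads, and Eif4a3l1 had 0.310 to 0.420 times the counts of Eif4a3. It may also hold for the 16 chromosome 12 copies, with 3 to 1656 counts each. None of the 12 copies tested passed the threshold in any comparison with edgeR. Of the factors named below, 43.3% of the exon bases of Eif3d overlap the antisense gene Gm17638, 14.8% of those of Eif4e3 overlap Gm20696 on the same strand, and 16.8% of those of Eif5b overlap Rev1 on the other strand. Whether counting used strand is not given in the sources used here.

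The factors varied little among the 6 groups. Of the 60 tested factors outside the chromosome 12 copies, 51 had a highest group mean less than 1.5 times the lowest (85.0%), against 37.8% of all genes tested. The median ratio was 1.33 for the factors and 1.65 for all genes. At a mean of at least 10 CPM, where counting noise weighs less, the medians were 1.31 in 52 factors and 1.49 in 6827 genes, with 88.5% and 51.6% under 1.5. Over the 60 factors the median coefficient of variation within groups was 12.0%, against 17.8% for all genes tested, and at the floor of 10 CPM it was 11.2% against 13.4%. Only Eef2k (4.35 times) and Eif4e3 (4.05 times) had group means more than 2 times apart. The lowest of the 6 group means fell in the freely fed 16-week wild type for 37 of the 60, and the highest in the restricted wild type for 26 and at 104 weeks for 15. The lowest and highest groups were not counted over all genes tested, so these counts do not set the factors apart.

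Summed over the 80 genes, the level was 8265 ± 281 CPM (SD, n = 4) in the freely fed 16-week wild type, with libraries from 7929 to 8617 CPM. It was 10416 ± 1110 CPM in the restricted wild type (9130 to 11826) and 10223 ± 696 CPM at 104 weeks (9586 to 11008), and neither range overlaps that of the young freely fed wild type. The mutant had 8890 ± 586 CPM at 7 weeks (8143 to 9547), 9344 ± 722 CPM at 16 weeks (8765 to 10351) and 9629 ± 1003 CPM under restriction (8746 to 10660). Both 16-week mutant ranges also lie above the young freely fed wild type, and that at 7 weeks overlaps it. The sum is dominated by Eef1a1 and Eef2 and is given without a test.

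**Figure D2:**
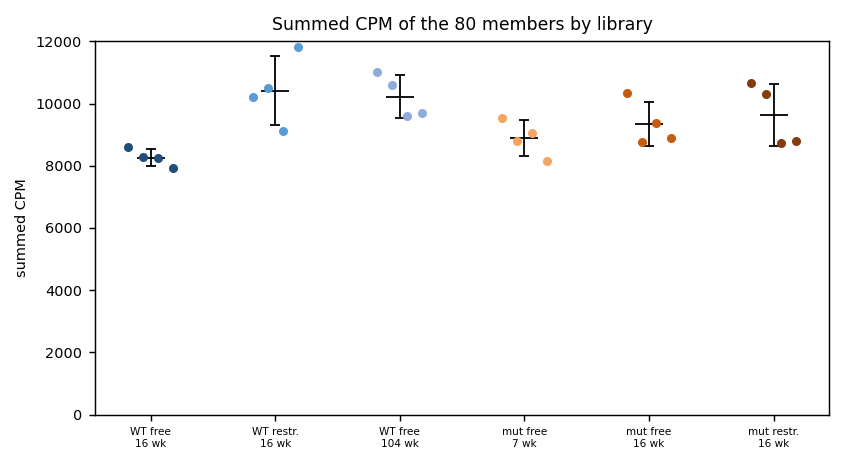
Summed CPM of the 80 genes in each library (points), with the mean and SD of the 4 libraries of each group (bars), from an axis that starts at 0. All 4 libraries of the freely fed 16-week wild type lie below all libraries of every other group except the 7-week mutant.

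The genotype, age and diet comparisons of the wild type that follow all use the same 4 libraries of the freely fed 16-week wild type, so their fold changes share those values. Levels are CPM per library in the order of replicates 1 to 4, then the log2 fold change ± SE. A gene is said to rise or fall where edgeR's quasi-likelihood test, adjusted by Benjamini-Hochberg over all genes tested, gave p under 0.05.

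Restriction in the wild type was compared with free feeding at 16 weeks. Of 72 tested, 10 rose and 1 fell, or 15.3% of the factors where 13.6% of all genes tested were called. With no scaling of the libraries 25 rose and 1 fell, with no filter or with only the groups compared 6 rose and 1 fell, and DESeq2 called 14 higher and 1 lower. For rises alone the share was 13.9% against 6.3%, and for falls 1.39% against 7.3%. The risers were the helicases Eif4a1 and Eif4a2, the scaffold-like Eif4g2, the eIF3 subunits Eif3a, Eif3d and Eif3g, the subunit-joining factor Eif5b, and the elongation factors Eef1a1, Eef1b2 and Eef2. The gene that fell was Eif4g3, a second eIF4G scaffold. The median log2 fold change of the 72 was 0.28, against 0.04 for all genes tested, and 58 of the 72 were positive.

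Eif4g3 (ENSMUSG00000028760, chr4:137993022-138208508, GRCm38) was at 91.2, 99.3, 94.0 and 101 CPM in the freely fed wild type and at 80.8, 57.7, 70.1 and 49.0 CPM under restriction. The groups did not overlap, and the log2 fold change was -0.58 ± 0.11 (edgeR adjusted p = 0.00141). The main scaffold Eif4g1 was at 569, 591, 586 and 562 CPM and at 545, 552, 664 and 574 CPM, with a log2 fold change of 0.02 ± 0.09 (edgeR adjusted p = 0.928). Eif4g2, an eIF4G relative that lacks the eIF4E-binding part, was at 466 to 502 CPM on free feeding and at 544 to 708 CPM under restriction, and rose by 0.34 ± 0.10 on the log2 scale (edgeR adjusted p = 0.0284). So in the same livers Eif4g3 was called lower, Eif4g2 was called higher and Eif4g1 did not pass the test. The Eif4g2 call was lost in 7 of 14 alternatives, among them no filter and only the groups compared.

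The helicase Eif4a2 was at 175, 163, 171 and 167 CPM on free feeding and at 256, 225, 191 and 296 CPM under restriction, a log2 fold change of 0.52 ± 0.13 with no overlap (edgeR adjusted p = 0.00835). Its paralog Eif4a1 was at 281, 248, 228 and 223 CPM and at 312, 343, 337 and 370 CPM, a log2 fold change of 0.47 ± 0.16 (edgeR adjusted p = 0.0476). The Eif4a1 call was lost in 9 of 14 alternatives, among them RLE scaling and no filter. The cap-binding protein itself, Eif4e, was at 25.8 to 28.3 CPM and at 25.1 to 40.0 CPM, with overlapping groups and a log2 fold change of 0.28 ± 0.14 (edgeR adjusted p = 0.174).

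Eif3a, the largest eIF3 subunit and its scaffold (ENSMUSG00000024991, chr19:60761117-60790658), was at 185, 198, 196 and 183 CPM on free feeding and at 224, 283, 253 and 360 CPM under restriction. Every restricted library was above every freely fed one (log2 fold change 0.56 ± 0.12, edgeR adjusted p = 0.00249). Eif3d, the subunit with a cap-binding face of its own, went from 56.1, 54.6, 54.9 and 48.7 CPM to 85.9, 62.8, 83.5 and 95.3 CPM (0.61 ± 0.18 on the log2 scale, edgeR adjusted p = 0.0230). Eif3g, an RNA-binding subunit, went from 53.9, 51.8, 50.9 and 45.9 CPM to 75.2, 64.0, 74.6 and 81.0 CPM (0.54 ± 0.16, edgeR adjusted p = 0.0250). The other 11 eIF3 subunits did not pass edgeR's test, and DESeq2 also called Eif3m (0.32, adjusted p = 0.0356). Over all 14 the median log2 fold change was 0.28, with a lowest value of -0.01 for Eif3l.

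Among the elongation factors, Eef1b2, the nucleotide exchange subunit of eEF1B, was at 161, 153, 140 and 136 CPM on free feeding and at 216, 212, 192 and 248 CPM under restriction, without overlap (0.56 ± 0.14 on the log2 scale, edgeR adjusted p = 0.0108). Eef1a1 was at 2792, 2610, 2674 and 2592 CPM and at 3471, 3608, 2817 and 4238 CPM (0.41 ± 0.11, edgeR adjusted p = 0.0173). Eef2 was at 1238, 1232, 1205 and 1103 CPM and at 1707, 1739, 1202 and 1780 CPM. Restricted replicate 3 lay among the freely fed libraries while the other 3 were above them all (0.43 ± 0.14, edgeR adjusted p = 0.0435). The Eef2 call was lost in 10 of 14 alternatives, among them RLE scaling, no filter and only the groups compared. Eif2s1, the eIF2 subunit that the stress kinases phosphorylate, was at 29.9 to 33.0 CPM and at 31.7 to 51.3 CPM (0.31 ± 0.14, edgeR adjusted p = 0.134). Eif5a was at 138 to 168 CPM and at 145 to 161 CPM (-0.06 ± 0.11, edgeR adjusted p = 0.753). With edgeR none of the 4 eIF2 subunit genes, Eif2a, Eif2d or the 5 eIF2B genes passed the test in this comparison. Nor did the 6 genes grouped under start codon selection. DESeq2 called Eif2s2 (0.27, adjusted p = 0.0492).

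The number of rises depended on single libraries. It was 10 with all, 3 without restricted replicate 4, and 5, 4 and 4 without freely fed replicates 2, 3 or 4. The log2 fold change of Eif5b was 0.42 with all libraries and 0.21 without restricted replicate 4, and its call was lost in 9 of 14 alternatives. Restricted replicate 4 had the highest level of Eif3a, Eif4a2, Eef1a1 and Eef1b2 and the highest mitochondrial share (16.9%), against 10.7% to 11.8% in the freely fed wild type. All 5 markers of cycling cells and 3 of 5 erythroid markers were lower under restriction, with summed levels of 1.28 to 2.85 against 5.09 to 12.9 CPM and of 368 to 823 against 1258 to 2287 CPM. The part of these in the result was not tested.

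**Figure D3:**
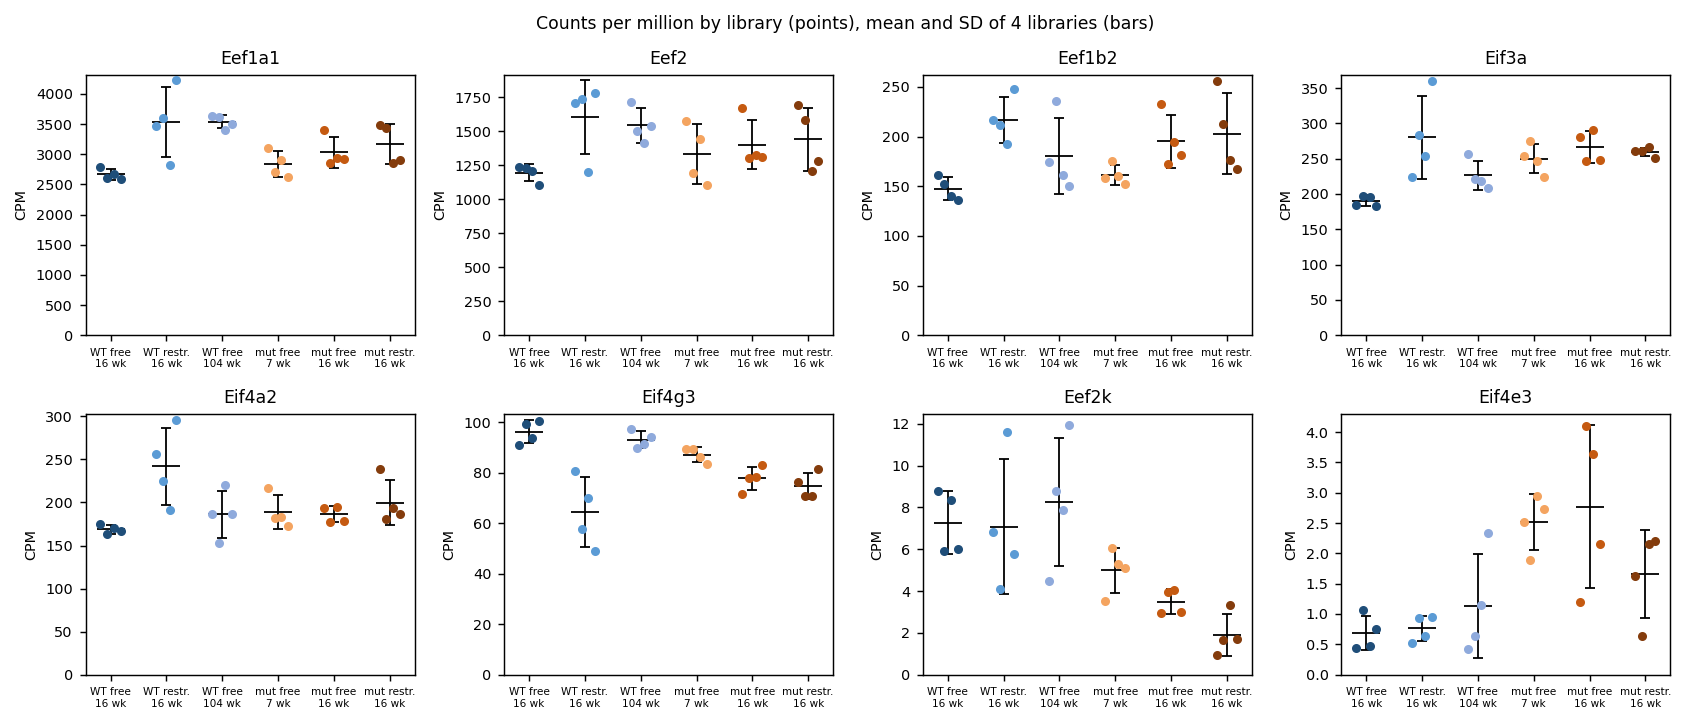
CPM of 8 factors in every library (points) with the mean and SD of 4 libraries (bars), 1 panel per gene, each axis starting at 0. Eif3a, Eif4a2 and Eef1b2 are higher and Eif4g3 lower in the restricted than in the freely fed 16-week wild type with no overlap, while Eef2k is at 0.934 to 6.04 CPM in the mutant groups and Eif4e3 is at 0.643 to 4.1 CPM there.

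Restriction in the mutant was read against the freely fed mutant of 16 weeks. None of the 72 factors passed edgeR's test, where 11.2% of all genes did (4.91% higher and 6.33% lower), and 2 had an unadjusted p under 0.05, both lower. Here and below, unadjusted p were counted for the factors only, so no share of all genes stands beside them. DESeq2 also called none. The median log2 fold change was 0.07, against 0.00 for all genes tested. With no scaling of the libraries the median of all genes moved to 0.12, 60 rather than 49 of the 72 were positive and 1 was called higher. Eif3a was at 281, 247, 291 and 248 CPM in the freely fed mutant and at 261, 261, 266 and 252 CPM in the restricted mutant, and Eif4g3 was at 71.8, 78.0, 78.5 and 82.9 CPM and at 76.4, 70.7, 71.0 and 81.5 CPM. Eef1a1 was at 3406, 2860, 2931 and 2929 CPM and at 3478, 3443, 2856 and 2902 CPM (0.06 ± 0.11, edgeR adjusted p = 0.785). The lowest adjusted p was that of Eef2k (-0.87, edgeR adjusted p = 0.112), whose levels are given with the genotype.

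Whether diet acted differently in the genotypes was tested as an interaction. None of the 72 factors passed it with edgeR, where 1.5% of all genes did (0.906% higher and 0.591% lower). Among the factors 10 had an unadjusted p under 0.05, of which 9 were negative, and the share of all genes at that threshold was not counted. The median interaction was -0.21, against -0.04 for all genes, and 56 of 72 were negative, that is, had a lower log2 fold change under restriction in the mutant than in the wild type. The lowest adjusted p was that of Eif3a (-0.59 ± 0.17, edgeR adjusted p = 0.0737). Eif4g3 had 0.52 ± 0.16 (edgeR adjusted p = 0.113). DESeq2 called both of these, with adjusted p of 0.0337 for Eif3a and 0.0330 for Eif4g3, and edgeR called 1 in each direction when replicate 1 of the restricted wild type was left out. A difference in response between the genotypes was thus not established by the main test and hangs on the tool for these 2 genes.

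Natural ageing was read in the wild type as 104 against 16 weeks on free feeding. Of 72 factors, 5 rose and none fell with edgeR: Eif4a1, Eif3d, Eif4enif1, Eef1a1 and Eif2s2. That is 6.94% of the factors where 10.1% of all genes were called, and for rises alone 6.94% against 5.13%. All 27 factors with an unadjusted p under 0.05 were higher, and the share of all genes at that threshold was not counted. The median log2 fold change was 0.29 against 0.02 for all genes, and 64 of the 72 were positive. DESeq2 called 9 higher and none lower.

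Eef1a1 was at 2792, 2610, 2674 and 2592 CPM at 16 weeks and at 3626, 3617, 3400 and 3507 CPM at 104 weeks. All 4 old livers were above all young ones, by 0.41 ± 0.11 on the log2 scale (edgeR adjusted p = 0.0215). Eef2 was at 1103 to 1238 CPM and at 1716, 1500, 1417 and 1539 CPM, likewise without overlap, but missed the threshold (0.37 ± 0.14, edgeR adjusted p = 0.0975). Eif2s2, the beta subunit of eIF2, was at 66.2, 60.7, 59.7 and 65.6 CPM and at 87.2, 87.7, 75.7 and 75.2 CPM (0.37 ± 0.10, edgeR adjusted p = 0.0234).

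The other rises were uneven among the old livers. Eif4a1 was at 223 to 281 CPM at 16 weeks and at 489, 440, 305 and 270 CPM at 104 weeks (0.62 ± 0.16, edgeR adjusted p = 0.0137), and old replicate 4 lay within the young range. Eif3d was at 48.7 to 56.1 CPM and at 88.0, 113, 65.3 and 58.0 CPM (0.60 ± 0.18, edgeR adjusted p = 0.0338). Eif4enif1, the shuttling protein that carries eIF4E into the nucleus, was at 21.3 to 22.3 CPM and at 42.7, 28.7, 30.2 and 24.6 CPM (0.54 ± 0.17, edgeR adjusted p = 0.0474). That call was lost in 11 of 14 alternatives, among them the replicate block, no scaling and no filter, and the log2 fold change was 0.35 without old replicate 1. That of Eif3d was 0.39 without old replicate 2. In Eif4a1 and Eif3d old replicates 1 and 2 were the high ones, and these 2 also had the lowest TMM scaling factors of the series (0.867 and 0.825).

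Among the factors fixed for every comparison, Eif4e was at 25.8 to 28.3 CPM and at 27.5 to 42.2 CPM (0.27 ± 0.14, edgeR adjusted p = 0.219) and Eif4g1 at 562 to 591 CPM and at 581 to 698 CPM (0.17 ± 0.09, edgeR adjusted p = 0.275). Eif2s1 was at 29.9 to 33.0 CPM and at 34.2 to 43.4 CPM (0.32 ± 0.14, edgeR adjusted p = 0.150), and Eif5a at 138 to 168 CPM and at 139 to 198 CPM (0.05 ± 0.11, edgeR adjusted p = 0.839). None of these 4 passed the test.

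The count of 5 rises fell to 0 without young replicate 3 or old replicates 1 or 2, to 3, 1 and 2 without young replicates 1, 2 or 4, and grew to 10 without old replicate 4. The 3 tested B and plasma cell markers were higher at 104 weeks, with the list of 6 at 43.2 to 51.4 CPM against 4.67 to 11.04 CPM, and so were 3 of 8 macrophage markers, with the list at 134 to 235 against 95.1 to 138 CPM. Their part in the result was not tested.

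Genotype was compared first on free feeding at 16 weeks. In the mutant 3 factors rose and 1 fell of 72, or 5.56% where 9.94% of all genes were called (5.1% higher and 4.85% lower). With no scaling of the libraries the split was 14 higher and 0 lower. The risers were Eif3a, Eif2a and Eif4e3, and the gene that fell was Eef2k. The median log2 fold change was 0.19 against 0.02 for all genes, with 60 of 72 positive.

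Eif3a was at 185, 198, 196 and 183 CPM in the wild type and at 281, 247, 291 and 248 CPM in the mutant, with no overlap (0.49 ± 0.12, edgeR adjusted p = 0.00829). Eif2a, a factor that can bring the initiator tRNA in place of eIF2, was at 30.0, 26.5, 27.1 and 23.0 CPM and at 36.3, 32.9, 36.5 and 33.2 CPM (0.38 ± 0.12, edgeR adjusted p = 0.0394), but the call was lost in 8 of 14 alternatives, among them 7 that leave out a library (adjusted p of up to 0.143). Eif4e3 (ENSMUSG00000093661, chr6:99625135-99666771), a divergent cap-binding relative of eIF4E, had low levels of 0.445, 1.06, 0.479 and 0.754 CPM in the wild type and 1.20, 4.10, 3.63 and 2.16 CPM in the mutant. All mutant libraries were above all wild-type ones, and the log2 fold change was 2.02 ± 0.46 (edgeR adjusted p = 0.00543). It was named after its values were seen, since its mean of 1.59 CPM lies under the 2 CPM set for named genes. In the 7-week mutant it was at 2.52, 1.88, 2.94 and 2.73 CPM. Under restriction it was at 0.522, 0.931, 0.642 and 0.950 CPM in the wild type and at 1.63, 0.643, 2.16 and 2.20 CPM in the mutant, with overlap, and did not pass the test (1.13 ± 0.47, edgeR adjusted p = 0.0954).

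Eef2k, the kinase that phosphorylates and inhibits eEF2 (ENSMUSG00000035064, chr7:120842831-120907450), was at 8.78, 5.92, 8.38 and 6.03 CPM in the wild type and at 2.96, 3.93, 4.06 and 2.99 CPM in the mutant (-1.06 ± 0.32, edgeR adjusted p = 0.0360). The groups did not overlap. The call was lost without wild-type replicates 1 or 3, without any one of the 4 mutant libraries, and with no scaling of the libraries, although the log2 fold change stayed between -1.15 and -0.97 when a library was left out. Its substrate Eef2 was at 1670, 1303, 1327 and 1310 CPM in the mutant, above the 1103 to 1238 CPM of the wild type (0.23 ± 0.14, edgeR adjusted p = 0.330).

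Eef1a1 was at 2592 to 2792 CPM in the wild type and at 2860 to 3406 CPM in the mutant (0.18 ± 0.11, edgeR adjusted p = 0.330). Eif2s1 was at 29.9 to 33.0 CPM and at 34.2 to 43.2 CPM (0.34 ± 0.14, edgeR adjusted p = 0.121), and Eif4e, Eif4g1 and Eif5a had log2 fold changes of 0.10, 0.11 and 0.19 and did not pass the test. Eif3a was the one factor that rose with edgeR both here and under restriction, and DESeq2 called Eif4a1 and Eef1g in both as well. Eif3a had log2 fold changes of 0.49 in the mutant, 0.56 under restriction and 0.25 at 104 weeks, each against the same young wild-type libraries. Of the macrophage and Kupffer cell markers 6 of 8 were higher in the mutant, with the list at 142 to 285 CPM against 95.1 to 138 CPM. Of the erythroid markers 4 of 5 were lower, at a summed 357 to 733 against 1258 to 2287 CPM. Their part in the result was not tested.

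Under restriction, 3 factors were higher and 2 lower in the mutant than in the wild type, or 6.94% where 18.3% of all genes were called (9.58% higher and 8.7% lower). With no scaling the split was 4 higher and 1 lower, and 56 rather than 32 of the 72 log2 fold changes were positive, since the median of all genes moved from -0.03 to 0.09. Eef2k had the largest change, with 6.83, 4.08, 11.6 and 5.77 CPM in the restricted wild type and 0.934, 1.66, 3.33 and 1.68 CPM in the restricted mutant. No mutant library reached the lowest wild-type one (-1.89 ± 0.34, edgeR adjusted p = 3.33e-04).

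Eif4g2 also fell, from 544, 621, 596 and 708 CPM to 538, 535, 431 and 458 CPM, its groups separated by a small gap (-0.33 ± 0.10, edgeR adjusted p = 0.0270), but with no scaling the value was -0.21 and the call was lost. Eef1akmt1, a lysine methyltransferase of eEF1A, was at 3.70, 1.65, 5.52 and 2.72 CPM in the wild type and at 4.20, 5.09, 7.06 and 7.00 CPM in the mutant, with overlap (0.77 ± 0.26, edgeR adjusted p = 0.0375). Eif2d, an alternative carrier of initiator tRNA that also acts in ribosome recycling, was at 24.1, 18.4, 23.1 and 16.2 CPM and at 32.9, 21.5, 29.9 and 31.9 CPM, again with overlap (0.50 ± 0.15, edgeR adjusted p = 0.0198). Eif4e2, a cap-binding protein that represses translation, was at 29.8, 27.5, 27.9 and 33.1 CPM and at 36.2, 40.0, 33.2 and 36.9 CPM (0.31 ± 0.11, edgeR adjusted p = 0.0438). The Eif4e2 call was lost in 8 of 14 alternatives, that of Eif4g2 in 7, that of Eef1akmt1 in 6 and that of Eif2d in 4. Each was lost with only the groups compared.

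Eef1a1 and Eef2 had log2 fold changes of -0.16 ± 0.11 and -0.16 ± 0.14 (edgeR adjusted p = 0.356 and 0.473). Eif5a had 0.26 ± 0.11 (edgeR adjusted p = 0.109), and Eif4e, Eif4g1 and Eif2s1 had -0.10, -0.07 and 0.12. The 3 rises fell to 1 without wild-type replicate 4 or mutant replicate 1, and to 0 without mutant replicate 4. The 2 falls became 1 without wild-type replicates 2 or 4 or mutant replicates 3 or 4, and 5 without wild-type replicate 3. All 8 macrophage markers were higher in the mutant, with the list at 213 to 304 against 74.1 to 133 CPM, and 4 of 5 cycling cell markers were too, with the list at 8.23 to 12.3 against 1.28 to 2.85 CPM. Their part in the result was not tested.

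**Figure D4:**
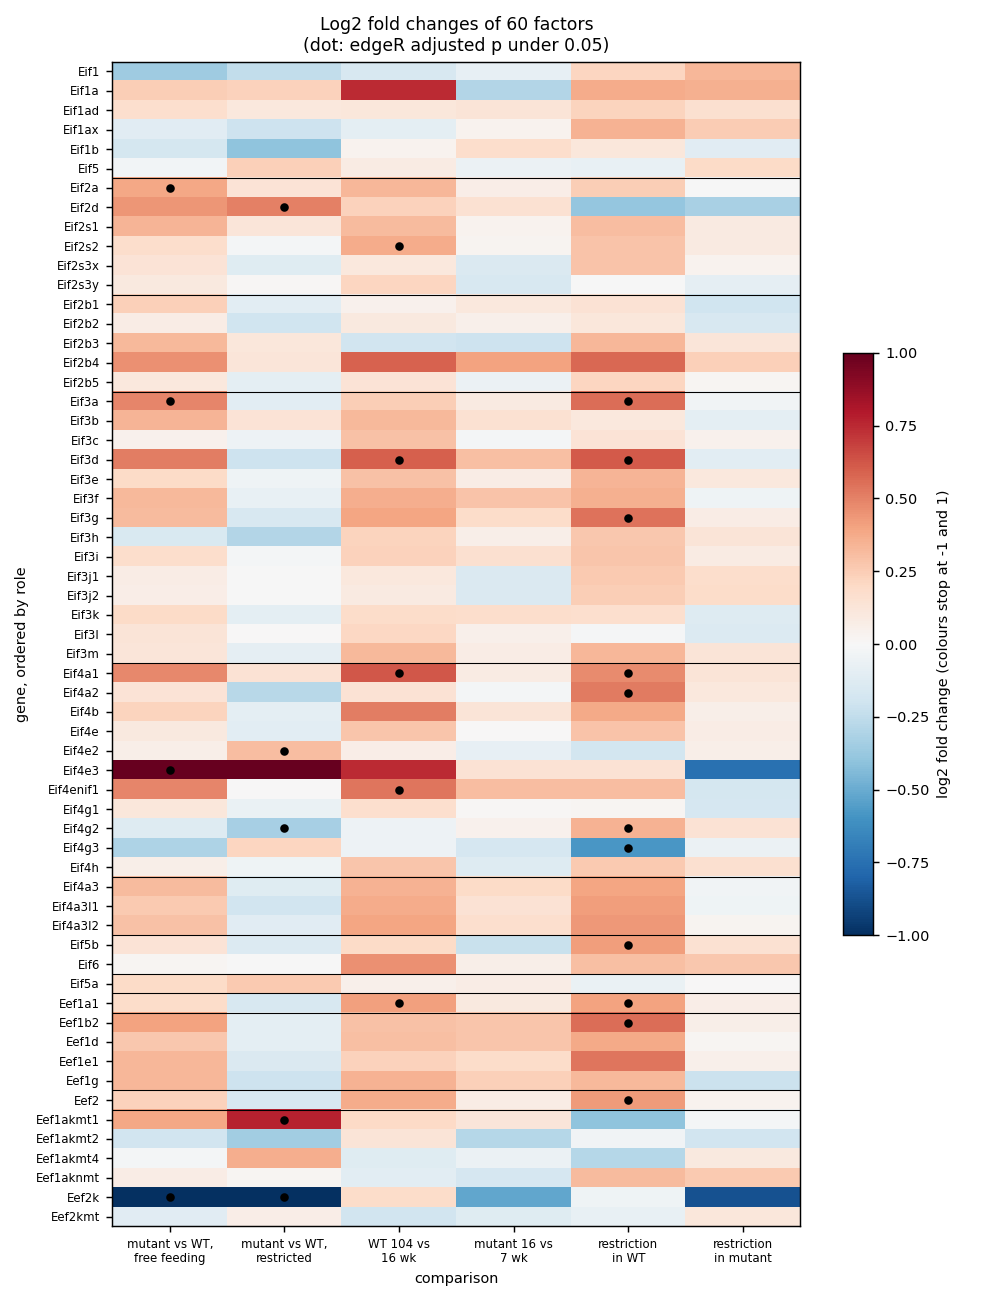
Log2 fold changes of the 60 tested factors outside the chromosome 12 copies (rows, ordered by role with lines between roles) in the 6 comparisons of groups (columns), with colours that stop at -1 and 1 and a dot where edgeR's adjusted p was under 0.05. The restriction column of the wild type holds 11 dots, the 104-week column 5, and the columns for the mutant from 7 to 16 weeks and for restriction in the mutant hold none.

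From 7 to 16 weeks in the freely fed mutant none of the 72 factors passed edgeR's test, where 0.686% of all genes did (0.355% higher and 0.331% lower), and DESeq2 called none. An unadjusted p under 0.05 was seen for 2, both higher, and the lowest adjusted p was 0.450 for Eif3f. Eef2k was at 3.51, 6.04, 5.29 and 5.12 CPM at 7 weeks and at 2.96, 3.93, 4.06 and 2.99 CPM at 16 weeks, with overlap. Eef1a1 was at 2627 to 3104 CPM and at 2860 to 3406 CPM (0.10 ± 0.11, edgeR adjusted p = 0.841), and Eef2 at 1106 to 1578 CPM and at 1303 to 1670 CPM (0.07 ± 0.14, edgeR adjusted p = 0.910).

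The groups of a comparison did not overlap in 19, 5, 15, 2, 20 and 1 of the 72 factors for genotype on free feeding, genotype under restriction, age in the wild type, age in the mutant, restriction in the wild type and restriction in the mutant. As shares of the factors these are 26.4%, 6.94%, 20.8%, 2.78%, 27.8% and 1.39%. Over all genes tested the shares were 22.5%, 15.8%, 16.9%, 12.4%, 17.2% and 17.3% in the same order. The share among the factors was thus above that of all genes for restriction in the wild type and below it in the other comparisons but 2. It was only a little above it for age in the wild type and for genotype on free feeding. Factors that may share reads are counted separately here, and the differences were not tested.

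Taken by role, the eIF2B exchange factor, which the integrated stress response inhibits, had no gene past edgeR's threshold in any comparison. Neither had the 6 genes grouped under start codon selection, among which Eif1ad is placed by its name only. Eif2b4 reached log2 fold changes of 0.59 at 104 weeks and 0.58 under restriction in the wild type, but its libraries were spread from 35.1 to 72.3 CPM and from 38.1 to 69.2 CPM in those groups. Eif1a had 0.75 at 104 weeks with libraries from 12.8 to 35.9 CPM, and DESeq2 called it there (adjusted p = 0.0381). Eef1b2, Eef1d, Eef1g and Eef1e1 were grouped under the eEF1B complex, Eef1e1 by its name only. The only edgeR rise among these 4 was that of Eef1b2 under restriction in the wild type. Their log2 fold changes there were 0.33 to 0.56. DESeq2 also called Eef1g higher there (adjusted p = 0.0421), at 104 weeks (0.0288) and in the freely fed mutant (0.0419). The 6 tested modifying enzymes had median changes of -0.07 to 0.04 in the genotype, wild-type ageing and diet comparisons, and Eef2k and Eef1akmt1 were the ones that passed a test.

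Regulators of the factors were read from 5 lists of pathway genes, of which 54 were tested. On free feeding the mutant had 4 higher and 0 lower, under restriction 5 and 1, at 104 weeks 3 and 3, under restriction in the wild type 5 and 1, and under restriction in the mutant 5 and 2. Over all genes 9.94%, 18.3%, 10.1%, 13.6% and 11.2% were called in the same comparisons, and nothing is read from the counts of these lists. None passed edgeR's test from 7 to 16 weeks in the mutant or in the interaction. Pabpc4, a cytoplasmic poly(A)-binding protein, was at 27.2 ± 2.99 CPM in the young freely fed wild type (SD, n = 4), 57.1 ± 11.5 under restriction and 44.6 ± 6.16 at 104 weeks. It was at 41.1 ± 3.21, 46.1 ± 5.23 and 71.9 ± 18.6 CPM in the mutant at 7 weeks, 16 weeks and under restriction. It rose under restriction in both the wild type (1.07, edgeR adjusted p = 8.89e-05) and the mutant (0.64, edgeR adjusted p = 0.00889). Pabpc4 was also higher in the freely fed mutant than in the wild type (0.76, edgeR adjusted p = 0.00290). At 104 weeks it was higher than at 16 weeks (0.71, edgeR adjusted p = 0.00562). It was not called for genotype under restriction or from 7 to 16 weeks in the mutant.

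Mtor, the kinase of mTORC1, fell under restriction in the wild type from 48.4 ± 3.64 to 37.0 ± 1.11 CPM (-0.39 ± 0.09, edgeR adjusted p = 0.00743). Trib3, a target of the stress factor ATF4, was higher in the mutant on free feeding, at 2.88 ± 0.820 against 1.03 ± 0.323 CPM (1.49 ± 0.30, edgeR adjusted p = 0.00177), and under restriction, at 4.30 ± 0.949 against 1.86 ± 0.668 CPM (1.20 ± 0.28, edgeR adjusted p = 0.00379). The other 6 genes of its list were not called in either comparison, and the list medians were 0.19 and -0.17. Atf4 itself was at 100 ± 28.6 against 77.2 ± 10.1 CPM on free feeding and at 89.3 ± 3.81 against 121 ± 24.3 CPM under restriction. Pdcd4, an inhibitor of eIF4A, was lower in the mutant than in the wild type when both were restricted, at 30.3 ± 3.77 against 48.0 ± 16.4 CPM (-0.66 ± 0.19, edgeR adjusted p = 0.0143). Eif4ebp3, an eIF4E-binding repressor, fell at 104 weeks from 16.2 ± 4.93 to 6.98 ± 4.14 CPM (-1.21 ± 0.36, edgeR adjusted p = 0.0351), with overlap. Eif4ebp1, another such repressor, rose at 104 weeks from 17.6 ± 1.66 to 25.7 ± 2.26 CPM (0.54 ± 0.17, edgeR adjusted p = 0.0425), and is named after its values were seen. Sesn1, an inhibitor of mTORC1, was higher in the restricted than in the freely fed mutant, at 14.1 ± 7.81 against 6.65 ± 0.473 CPM (1.09 ± 0.28, edgeR adjusted p = 0.0103).

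Of the factors, 9 have mRNAs that are known TOP mRNAs, among them Eef1a1, Eef2, Eef1b2, Eef1d and Eef1g. Their median log2 fold change was 0.38 under restriction in the wild type, against 0.28 for all 72 factors and 0.04 for all genes tested. Of the 9, 3 rose there (Eef1a1, Eef1b2 and Eef2) and 6 did not pass the test. The Eef2 call was lost in 10 of 14 alternatives. At 104 weeks the median of the 9 was 0.35 (0.29 over the 72 factors and 0.02 over all genes) with 1 rise, that of Eef1a1. In the mutant the median was 0.06 under restriction (0.07 over the 72 factors and 0.00 over all genes), with none past the threshold. Translation of these mRNAs was not measured here, and counts give only their amount.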

How the data were processed

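The authors deposited raw gene-level counts, not normalized. The submitters' processing notes list GRCm38.p6, Trimmomatic 0.39, the aligner STAR 2.7.0f and, from Subread 1.6.4, featureCounts. Annotation release, strand and the handling of multi-mapped reads: not given in the sources used here. These settings could change the counts of copies and overlapping genes.

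The count model was edgeR 4.0.16 (R 4.3.3) on the 12690 genes kept by filterByExpr, with TMM scaling. It held 6 group means over the 24 libraries, which leaves 18 residual degrees of freedom at a common dispersion of 0.0493. All contrasts were tested by quasi-likelihood F test with robust estimation and Benjamini-Hochberg adjustment over all genes tested at 0.05. CPM use the scaled library sizes. Exon unions and gene positions came from GENCODE M21 by identifier, and start windows from RefSeq. Depth was 13.3 to 20.6 M counts per library, and replicates always differed by more than counting noise (chi-square per degree of freedom of at least 8.32). Scripts were tested on simulated data.

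The factors, pathway lists and marker lists were chosen with earlier results of these data known. The rule for named genes took up to 5 called factors per comparison by size of change at a mean of at least 2 CPM, plus Eef1a1, Eef2, Eif4e, Eif4g1, Eif2s1 and Eif5a. Pathway genes, given as group means, were chosen from up to 3 called per comparison by p, and not all of these are described above. Not described were Pabpc1 for genotype on free feeding (log2 fold change 0.54) and Dph5 for genotype under restriction (0.74). Dph1 for age in the wild type (-0.47) was not described either. The same holds for Gspt2 for restriction in the wild type (1.36) and Hbs1l for restriction in the mutant (0.50). Values for other genes (among them Eif4a1, Eif4a2 and Eif4g2 under restriction in the wild type, Eif3a and Eif4g3 in the mutant, Eif4e3, Eef2k, Eif2b4, Eif1a and Eif4ebp1) were chosen after they were seen. Alternatives were other scaling (RLE, none), no filter, fits of only the groups compared, a replicate block, DESeq2 1.42.0 and leaving out each library. No deposited sample was left out.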

Additional observations from a re-analysis of the deposited data

Results flagged for a closer look

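In 126 groups of 4 libraries, over 21 factors, a library was called far from the rest where its gap to the nearest other exceeded the share of the group's range set by Dixon's test at 95%. Chance flags about 1 in 20 such groups, and 3 were flagged. Eef1a1 was at 3406 CPM in the first freely fed 16-week mutant library, with the other 3 at 2860 to 2931 CPM. Eef2 was at 1670 CPM in the same library, with the others at 1303 to 1327 CPM. Eef2 was at 1202 CPM in the third restricted wild-type library, with the others at 1707 to 1780 CPM.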

How the results depend on the processing

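The 25 called changes were refitted under 14 alternatives each. All 350 refits kept the direction, 232 kept the call and 118 lost it, 89 of these when a library was left out. Calls kept in all 14 were those of Eif4e3 and Eif3a (genotype, free feeding), Eef2k (genotype, restriction) and Eef1b2, Eif4g3, Eif4a2 and Eif3a (restriction in the wild type). With no scaling factor, the mutant had 14 factors higher and 0 lower on free feeding and 1 lower under restriction, and restriction gave 25 higher in the wild type and 1 in the mutant. With no filter, 1 was lower for genotype under restriction, 2 were higher at 104 weeks and 6 under restriction in the wild type. With only the groups compared, genotype gave 10 higher and 2 lower on free feeding and 0 higher and 1 lower under restriction, age in the wild type 1 higher and restriction 6 higher. DESeq2 gave 6 higher for genotype on free feeding, 9 higher at 104 weeks, and 1 higher and 1 lower for the interaction. The cause was not tested.

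The replicate block gave 7 factors higher in the mutant on free feeding, against 3. The labels do not say that the numbers pair samples, and only 5 of 24 pairs of same-numbered libraries correlated above 0.1 (-0.222 to 0.316), so they share only a number.

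Leaving out 1 library gave 2 to 4 higher and 0 to 1 lower for genotype on free feeding, 0 to 3 higher and 1 to 5 lower for genotype under restriction, 0 to 10 higher for age in the wild type, 3 to 13 higher and 1 to 2 lower for restriction in the wild type, 0 to 1 lower for restriction in the mutant, and 0 to 1 in each direction for the interaction. Among the changes followed, signs changed for 4 that had not passed the test. Eef2k under restriction in the wild type became 0.0451 with no scaling and ran from -0.383 to 0.147 without 1 library, and at 104 weeks from -0.0481 (without replicate 4) to 0.380. Eef2 ran from -0.0202 to 0.176 between 7 and 16 weeks in the mutant, and from -0.0480 to 0.133 under restriction in the mutant. Depth limits low genes such as Eif4e3 (5 to 72 counts a library).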
